A study of Mus musculus with 2 samples.

Results

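The stretch of mouse chromosome 12 around Bcl11b was described gene by gene in CD8+ T cells purified from Bcl11b-deficient mice and from wild-type mice. It was taken as the array probes placed from 98000000 to 120600000 on chromosome 12 (build mm8, NCBI36), leaving out Bcl11b itself and Hsp90aa1. These are 476 of the 41174 gene probes on the array, carrying 331 names. The other 1067 probes of chromosome 12 served as reference. The rule uses position alone, and the region was chosen with earlier results of these data known. The mice of the deficient group were Bcl11bF/F/dLck-iCre: a Cre driven by the distal Lck promoter, active in T cells, deletes their floxed Bcl11b. The wild-type cells came from wild-type mice. Mice of both groups had been infected with Listeria monocytogenes-OVA, a strain that carries ovalbumin, and were sampled at day 6. Negative selection was used to purify the CD8+ T cells, and the number of animals in each sample and their ages are not in the labels. There are 2 arrays, 1 per biological replicate, each with deficient RNA in red (Cy5) and wild-type RNA in green (Cy3). The dyes were not swapped, so an effect of the dye on a probe and an effect of genotype cannot be told apart.

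Bcl11b encodes a zinc-finger transcription factor that T cells need to develop and to keep their identity. It lies in a gene-poor interval towards the end of chromosome 12, flanked by Setd3 and, on the other side, by Vrk1 and Papola. Further out are a cluster of serpin genes, the imprinted genes from Dlk1 to Dio3, and the immunoglobulin heavy-chain locus, whose constant genes lie nearer to Bcl11b than its variable genes. B cells and plasma cells transcribe that locus strongly. The comparison asks whether genes that share this stretch with Bcl11b differed between the groups, and whether nearness to it mattered.

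The sequences before the start sites of 7 genes of the neighbourhood that changed are shown here, since these are the genes the comparison turns on. Each is the 250 bases 5′ of the first start site that RefSeq lists (build GRCm38.p6, in which positions differ from those of the array), printed 5′ to 3′ on the gene's own strand. Capitals mark matches, on either strand, to 5 motifs. These are the box of G and C letters bound by Sp1, GGGCGG, and the core promoter element known as the TATA box, TATAAA. The others are letters shared by sites of the myeloid factor PU.1, GAGGAA, the spacing typical of sites for STAT factors, TTCNNNGAA, and letters bound by the related factor BCL11A, TGACCA.
Lgmn, chr12:102439729-102439978, minus strand: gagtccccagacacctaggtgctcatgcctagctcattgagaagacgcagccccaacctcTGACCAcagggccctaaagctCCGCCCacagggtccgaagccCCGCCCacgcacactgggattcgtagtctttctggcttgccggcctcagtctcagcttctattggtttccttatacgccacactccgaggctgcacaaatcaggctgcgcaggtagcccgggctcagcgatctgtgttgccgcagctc
Asb2, chr12:103356002-103356251, minus strand: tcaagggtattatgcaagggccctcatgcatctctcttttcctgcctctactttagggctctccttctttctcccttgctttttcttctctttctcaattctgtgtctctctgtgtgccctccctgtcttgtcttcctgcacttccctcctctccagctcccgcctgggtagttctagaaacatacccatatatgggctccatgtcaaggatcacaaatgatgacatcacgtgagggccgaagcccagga
Serpina3g, chr12:104235897-104236146, plus strand: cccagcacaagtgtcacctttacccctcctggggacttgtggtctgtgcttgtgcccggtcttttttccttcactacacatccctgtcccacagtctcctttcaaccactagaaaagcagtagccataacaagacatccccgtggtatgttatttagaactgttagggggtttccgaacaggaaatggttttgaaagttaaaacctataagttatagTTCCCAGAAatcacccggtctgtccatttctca
Tnfaip2, chr12:111442411-111442660, plus strand: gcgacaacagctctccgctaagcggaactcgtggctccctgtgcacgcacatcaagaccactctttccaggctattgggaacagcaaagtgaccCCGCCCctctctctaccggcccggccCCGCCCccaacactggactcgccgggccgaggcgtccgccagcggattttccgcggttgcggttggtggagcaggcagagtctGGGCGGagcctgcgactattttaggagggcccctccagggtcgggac
Ckb, chr12:111672339-111672588, minus strand: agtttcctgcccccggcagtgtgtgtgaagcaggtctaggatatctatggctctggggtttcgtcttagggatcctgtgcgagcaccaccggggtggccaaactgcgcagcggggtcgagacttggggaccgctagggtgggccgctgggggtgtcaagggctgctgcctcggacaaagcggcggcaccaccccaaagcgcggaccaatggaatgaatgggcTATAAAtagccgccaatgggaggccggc
Crip2, chr12:113139986-113140235, plus strand: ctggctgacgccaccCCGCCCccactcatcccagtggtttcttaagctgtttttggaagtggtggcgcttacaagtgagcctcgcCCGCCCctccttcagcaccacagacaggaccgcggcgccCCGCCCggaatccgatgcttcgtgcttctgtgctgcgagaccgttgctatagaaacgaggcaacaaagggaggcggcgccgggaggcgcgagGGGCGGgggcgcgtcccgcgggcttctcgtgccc
Btbd6, chr12:112976232-112976481, plus strand: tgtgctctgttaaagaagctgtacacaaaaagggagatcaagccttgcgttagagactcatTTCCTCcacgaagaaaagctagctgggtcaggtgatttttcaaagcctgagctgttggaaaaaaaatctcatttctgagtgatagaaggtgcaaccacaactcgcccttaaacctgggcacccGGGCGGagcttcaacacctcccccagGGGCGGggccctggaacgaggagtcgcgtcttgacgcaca
No base of these stretches fell in matches of more than 1 motif. At the first listed start sites, the GC box was matched 4 times before Crip2, 3 times before Tnfaip2, and 2 times each before Lgmn and Btbd6. The TATA box was matched 1 time, before Ckb. GAGGAA was matched 1 time, before Btbd6, TTCNNNGAA 1 time, before Serpina3g, and TGACCA 1 time, before Lgmn. The stretch before Asb2 held no match. RefSeq also lists a second start site for 4 of the 7 genes, not printed, and the counts differ there. Asb2 then has 2 GC boxes, 1 GAGGAA and 1 TGACCA, Lgmn 1 TATA box and 1 TGACCA, Crip2 5 GC boxes and Btbd6 3. Of 32851 listed stretches of this length, 32.7% held the GC box, 12.4% the TATA box, 23.3% GAGGAA, 7.02% TTCNNNGAA and 11.4% TGACCA. The 6 higher genes are of mixed base composition, from 46.0% G and C with 4 CpG before Serpina3g to 66.8% with 26 CpG before Crip2. The median was 52.4% with 6 CpG over all stretches. Over the 95 stretches found for 73 of the 121 measured genes of the neighbourhood it was 65.6% with 21 CpG.

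A log2 ratio is deficient over wild type, after normexp background correction and loess within each array. A probe counted as measured where at least 1 colour was well above background on both arrays. Genes were counted by name, so a gene listed under more than 1 name counts more than 1 time. In the neighbourhood 154 of 476 probes were measured, standing for 121 genes, 42 on the centromeric side of Bcl11b and 79 on the telomeric side. Of these, 67 were well above background in both groups on both arrays. Another 14 were so in 1 group alone, and for them only a lower bound of the fold is given. This bound leaves out the error of the ratio, and for some genes, such as Atg2b, it equals the fold from the mean ratio. The words at least thus refer to the ratio on these arrays and set no minimum for the groups. Of the region's probes, 35.7% and 28.2% were well above background in wild-type RNA on replicates 1 and 2. For deficient RNA these shares were 28.2% and 32.6%. The median of the negative control spots was 326.5 and 406 in green and 968 and 707 in red, so dim spots carried a background that differed between the colours. Bcl11b had log2 ratios of -0.69 and -2.95, a mean of -1.82 ± 1.60 (SD, n = 2, limma adjusted p = 6.56e-04). On replicate 1 this fall was smaller than the median of -1.16 over 8 T-cell markers. On replicate 2 it was larger than their median of -1.74. Hsp90aa1, an abundant chaperone gene inside the region, had -0.69 and -0.44 (limma adjusted p = 0.445). Markers of other cells were higher in the deficient samples. All 8 macrophage markers rose (median 3.28, with 3.09 and 3.31 on the arrays), and their summed normalized intensity was 117562 to 149615 in deficient and 10758 to 12758 in wild-type samples. Of 6 measured B-cell markers 5 rose (median 1.73, with 1.25 and 2.33), with sums of 117600 to 209301 against 34188 to 47004. Of 8 T-cell markers limma called 4 lower, and all 8 were lower at an unadjusted p under 0.05 (median -1.50). The count of higher calls was 0, also at an unadjusted p under 0.05. The T-cell sums were 68104 to 99143 against 176695 to 206590. Of 4 markers each, 3 neutrophil, 4 erythroid and 3 NK-cell markers rose. Over all 9941 genes tested limma called 3.65% higher and 5.96% lower. At an unadjusted p under 0.05, 754 of all genes were higher and 1422 lower. In bulk RNA, fewer cells of a type and less RNA per cell cannot be told apart.

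Outside the heavy-chain locus the genes that changed stood singly among themselves, and all that changed lay 3.54 to 10.11 Mb from Bcl11b. Crip2, which rose, was the last measured gene before that locus. Of the 121 measured genes, 12 were higher and 5 lower in deficient cells, 14.0% in all, where limma called 9.61% of the 9941 genes tested on the whole array. The higher share was 9.92% against 3.65% of all genes, and the lower share 4.13% against 5.96%. All 17 had the same sign on both arrays. The median log2 ratio of the 121 genes was 0.02 (-0.16 on replicate 1 and 0.07 on replicate 2), against -0.12 (-0.22 and -0.01) for all genes. The estimated variance was the same for every gene, so each has a standard error of 0.42 and a call amounts to a mean beyond 1.18 in size. With the scanner program's own log ratios, limma called 0 of the 121 genes (15 higher and 19 lower at an unadjusted p under 0.05). The smallest adjusted p in limma was 0.0581, for Crip2, close to the threshold. In that setting limma also called 0 of all 9941 genes (2199 at an unadjusted p under 0.05). With median centring in place of loess it called 3 higher and 4 lower of the 121, and 69 higher and 350 lower of all genes.

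Over the whole region the ratios showed little order by absolute distance from Bcl11b. Across the 121 genes, the Spearman correlation of the mean log2 ratio with absolute distance was 0.0391, with -0.112 on replicate 1 and 0.197 on replicate 2. The sign thus differed between the arrays. This describes genes that share arrays and are not replicates. Without the heavy-chain segment, described below, the correlation was -0.145 over 95 genes. On the centromeric side it was -0.33 over 42 genes (-0.381 and -0.11), so genes nearer to Bcl11b tended to the higher ratios there, and between Bcl11b and the heavy chain it was 0.0262 over 48 genes. With signed position, from the centromeric to the telomeric end, it was 0.336 over the 121 genes (0.233 and 0.286), and 0.139 without the heavy-chain segment (0.148 and 0.0116). Cut into windows of 1 Mb counted from Bcl11b, the region gave 11 windows with at least 5 measured genes, whose medians ran from -0.54 to 0.57, and 5 of these lay above 0. The rest of chromosome 12 gave 21 such windows, from -0.78 to 0.45, of which 6 lay above 0. In the neighbourhood the lowest was the window from 2 to 3 Mb on the telomeric side (10 genes) and the highest that from 5 to 6 Mb (20 genes), where the heavy-chain constant genes begin. Neighbouring genes shared little outside that locus. The Pearson correlation between each measured gene and the next was 0.0168 over 41 pairs on the centromeric side. It was 0.0747 over 47 pairs between Bcl11b and the heavy chain. Inside the heavy chain it was 0.357 over 25 pairs (0.329 on replicate 1 and 0.175 on replicate 2), where neighbouring names may share a gene or sequence. Over 221 pairs in the rest of chromosome 12 it was 0.0359 (0.000708 and 0.112).

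**Figure D1:**
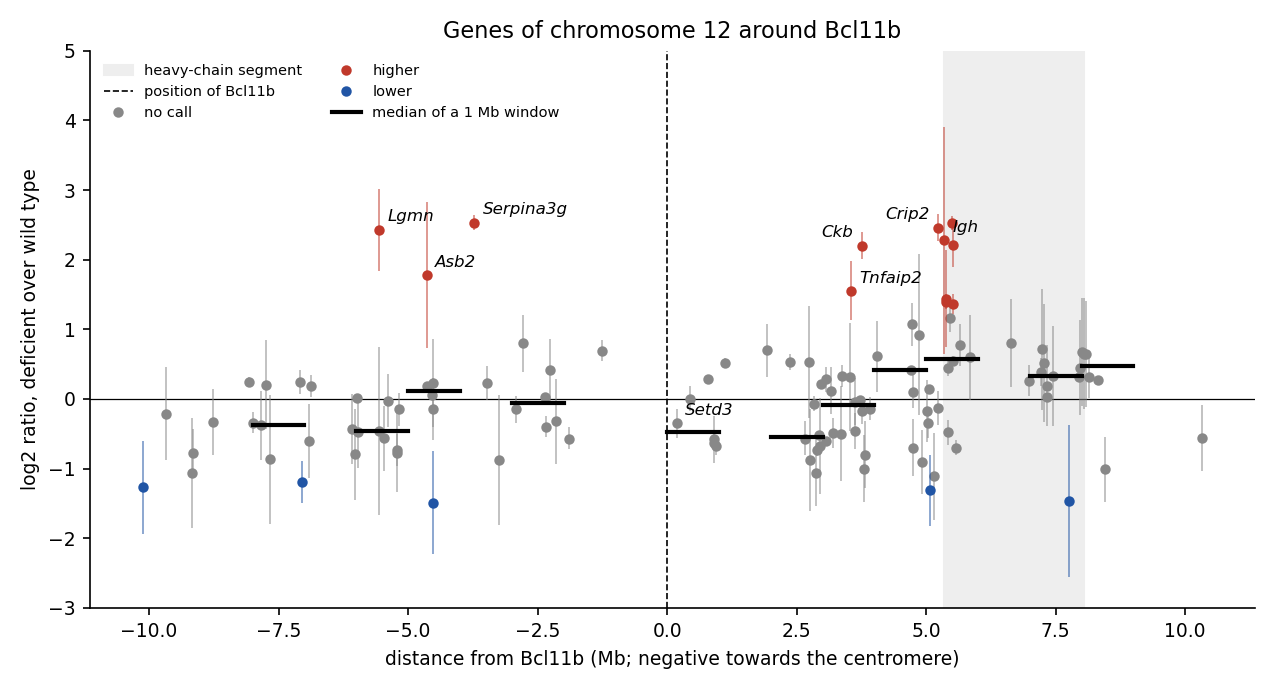
Mean log2 ratio of each of the 121 measured genes (points, coloured by the limma call; bars join the values on the 2 arrays) against distance from Bcl11b in Mb, with black lines for the median of each 1 Mb window that holds at least 5 genes. The higher genes stand singly, except in the shaded heavy-chain segment from 5.35 to 8.04 Mb and for Crip2, the last gene before it.

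Next to Bcl11b the measured genes were not called in either direction when each was taken by its brightest probe. The nearest measured gene lay 0.19 Mb away on the telomeric side (Setd3) and 1.25 Mb away on the other (4933406K04Rik). In the 1.45 Mb between them the array holds 4 other probes of the neighbourhood, and 0 of these passed the filter. Limma called 0 of the 20 nearest genes, 10 on each side (1 at an unadjusted p under 0.05, Dicer1; smallest adjusted p = 0.189), where it called 9.61% of all genes. The count was 0 also in the 11 or 12 alternatives at the level of genes in which each was tested. With each probe tested on its own, limma called 1 probe of these genes, the dimmer one of Vrk1, lower (adjusted p = 0.0413). Of the 20, 7 were below 0 and 7 above 0 on both arrays, and their means ran from -0.87 to 0.80.

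On the telomeric side, Setd3, which encodes a methyltransferase of actin, had -0.56 and -0.14 (mean -0.35, limma adjusted p = 0.656; chromosome 12, 108554525 to 108554584). Its second measured probe gave -0.85 and -0.09. Both arrays were below 0 for both probes. Cyp46a1, the cholesterol 24-hydroxylase of neurons, had 0.18 and -0.17, values on either side of 0. Evl, an actin regulator of the Ena/VASP family, was the brightest of these genes and gave 0.30 and 0.28. With median centring in place of loess its mean was -0.67, so its sign depends on the scaling. Yy1, a zinc-finger transcription factor, had -0.92 and -0.24, and Wars, the tryptophanyl-tRNA synthetase, -0.81 and -0.56. For Slc25a29, a mitochondrial carrier of basic amino acids, deficient RNA was not well above background and wild-type RNA was at least 1.56-fold higher (limma adjusted p = 0.374). These 3 neighbours at 0.90 to 0.95 Mb lay below 0 on both arrays without passing. The 6 genes within 1 Mb had a median of -0.47 (-0.64 and -0.21), and the 10 within 2 Mb one of -0.17 (-0.19 and -0.16). With both groups required to be well above background, the median within 1 Mb was -0.17.

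The next genes outwards went the other way. For Wdr25 and for Dio3, the deiodinase that inactivates thyroid hormone, wild-type RNA was not well above background and deficient RNA was at least 1.43-fold higher (limma adjusted p = 0.489 and 0.479). Dio3 was the single measured gene of the imprinted cluster: 5 of its 7 listed genes had probes in the region, and those for Dlk1, Meg3, Rian and Mirg did not reach the measurement limit. The unnamed transcript NAP070880-1 had 1.08 and 0.31. Ppp2r5c, a regulatory subunit of the phosphatase PP2A, closed this side with -0.81 and -0.32. The 10 telomeric genes thus held 5 below 0 and 4 above 0 on both arrays.

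On the centromeric side, wild-type RNA of the first measured transcript, 4933406K04Rik, was not well above background and deficient RNA was at least 1.55-fold higher (limma adjusted p = 0.329). For Vrk1, a kinase of chromatin proteins, deficient RNA was not well above background and wild-type RNA was at least 1.48-fold higher (limma adjusted p = 0.448). Its dimmer probe had -2.06 and -0.63 (mean -1.35), so the probes of this gene differ in size, and the dimmer one passed the threshold on its own. Papola, the poly(A) polymerase, had -0.93 and 0.28, opposite signs on the arrays, and its probes also disagree in sign. Gskip, a partner of the kinase GSK3, had 0.86 and -0.03, and Bdkrb1, the bradykinin B1 receptor, 0.07 and 0.00. For Atg2b, a lipid transfer protein of autophagy, deficient RNA was likewise not well above background and wild-type RNA was at least 1.32-fold higher (limma adjusted p = 0.598). Tcl1b5, of the Tcl1 family, was the highest of the 20 with 1.20 and 0.39 (mean 0.80 ± 0.58, SD, n = 2, limma adjusted p = 0.245). Glrx5, a mitochondrial glutaredoxin, had -0.35 and 0.04. Dicer1, the nuclease that matures microRNAs, had -1.81 and 0.06, and the transcript ENSMUSG00000056606 had 0.47 and -0.02. On this side 5 of 10 genes had opposite signs on the arrays, 2 were below 0 on both and 3 above.

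**Figure D2:**
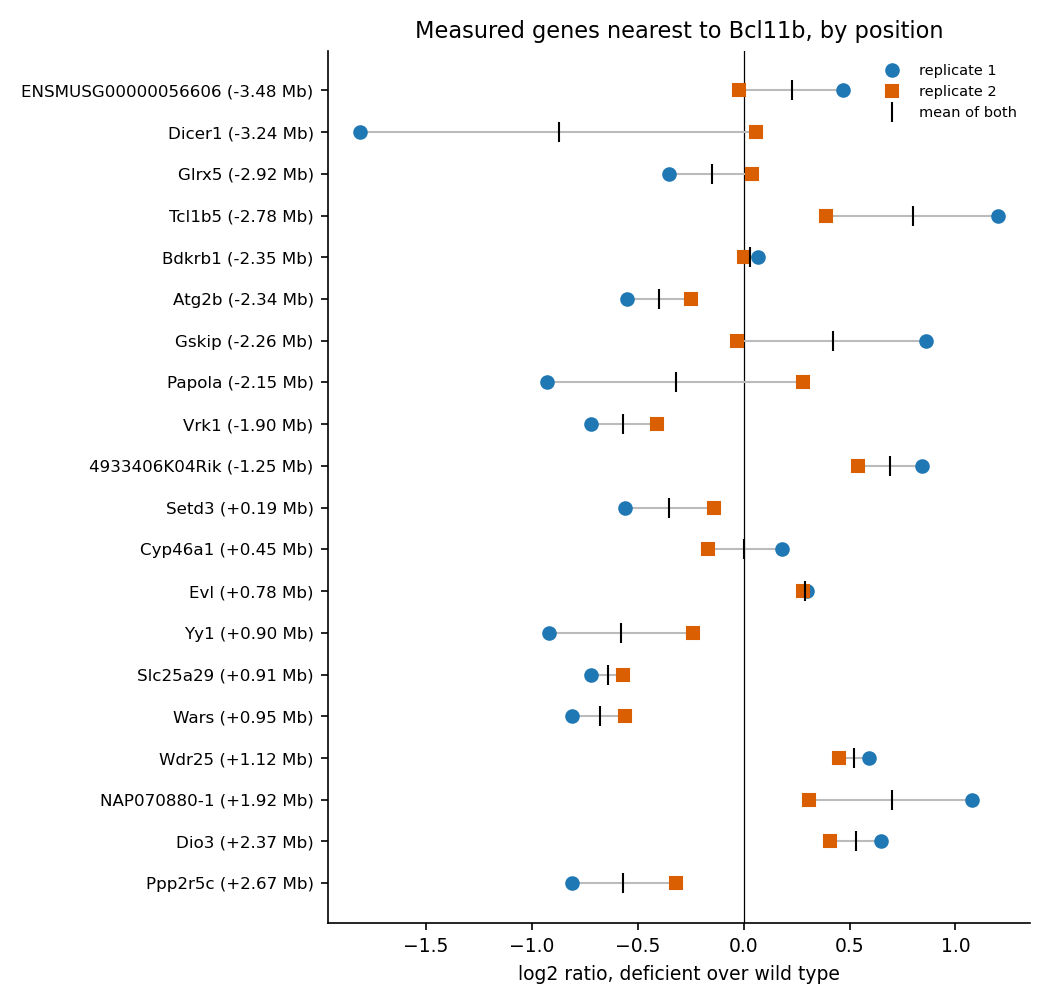
Log2 ratio on replicate 1 (circles) and replicate 2 (squares), with the mean of both (bars), for the 10 measured genes nearest to Bcl11b on each side, ordered along the chromosome from the centromeric side down. Values lie on both sides of 0, from -0.87 for the mean of Dicer1 to 0.80 for that of Tcl1b5. For genes measured in 1 group alone (Atg2b, Vrk1, 4933406K04Rik, Slc25a29, Wdr25 and Dio3) the ratio gives only a bound.

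Among genes outside the heavy-chain locus, 6 rose, and they stood singly among these genes. Of the 121 measured genes, Crip2 was the last before the locus, next to Igh, which also rose. Serpina3g, a serpin that inhibits lysosomal cathepsins inside cells, had 2.64 and 2.42 (mean 2.53 ± 0.15, SD, n = 2, limma adjusted p = 2.72e-07; 104642885 to 104642944). It was high on both arrays and the single measured gene of its cluster, of which 18 of 22 listed genes have probes in the region; near-identical serpin copies may contribute to its probe. Crip2, a cysteine-rich LIM protein, had 2.65 and 2.27 (mean 2.46 ± 0.27, limma adjusted p = 6.67e-07; 113593252 to 113593311). The in-region probe of Crip1, the next gene, had 1.45 and 0.43. A brighter probe of Crip1 with no coordinate had 1.28 and 0.31, and the gene was not called from it (limma adjusted p = 0.245). Mta1 on the other side of Crip2 had 0.12 and -0.37. Lgmn, the lysosomal protease legumain, had 1.83 and 3.02 (mean 2.43 ± 0.84, limma adjusted p = 1.02e-06; 102795415 to 102795474). Its neighbours Rin3 (-1.67 and 0.74) and Golga5 (-1.03 and -0.10) did not share its rise.

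Ckb, the brain-type creatine kinase, had 2.01 and 2.39 (mean 2.20 ± 0.26, limma adjusted p = 1.57e-05; 112117293 to 112117352). Its dimmer probe, below the measurement limit, had -0.13 and 1.58, so the probes differ on replicate 1. Asb2, which brings substrates to a cullin ubiquitin ligase, had 0.73 and 2.83 (mean 1.78 ± 1.49, limma adjusted p = 9.86e-04; 103722592 to 103722651). Its SD is near its mean. Tnfaip2, a gene induced by tumour necrosis factor, had 1.13 and 1.98 (mean 1.55 ± 0.60, limma adjusted p = 0.00527; 111902556 to 111902615). All 6 were above 0 on both arrays and kept that direction in each tested alternative that uses both arrays, with lowest values from 1.00 for Tnfaip2 to 1.84 for Crip2. On a single array the lowest value was 0.73, for Asb2. Macrophage markers, at a median of 3.28, rose in the same samples, and their part in these 6 rises was not tested.

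The 5 lower genes lay on both sides of Bcl11b and were smaller in size. Btbd6, a BTB-domain adaptor, had -1.82 and -0.80 (mean -1.31 ± 0.73, SD, n = 2, limma adjusted p = 0.0254; 113426470 to 113426529), and its deficient channel was well above background on 1 of 2 arrays. Ccdc88c, which encodes the Dishevelled-binding protein Daple, had -1.50 and -0.89 (mean -1.19 ± 0.43, limma adjusted p = 0.0467; 101312570 to 101312629). A second probe for it had -1.77 and -0.77, close to the first. It lay just past the limit, with an adjusted p of 0.0518 in limma once each array was centred on the median of all genes. The other 3 have no plain name and fell outside the naming rule: ENSMUST00000081227 had -1.94 and -0.60, LOC619863, inside the heavy-chain segment, had -2.56 and -0.37, and for NAP015047-001 deficient RNA was not well above background, with wild-type RNA at least 2.37-fold higher (limma adjusted p = 0.00842). On replicate 1 all 5 were lower than on replicate 2. Over the region, 25 genes lay below a 2-fold drop on replicate 1 and 0 on replicate 2, while 15 and 24 lay above a 2-fold rise. T-cell markers, at a median of -1.50, fell in the same samples, and their part in these values was not tested.

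**Figure D3:**
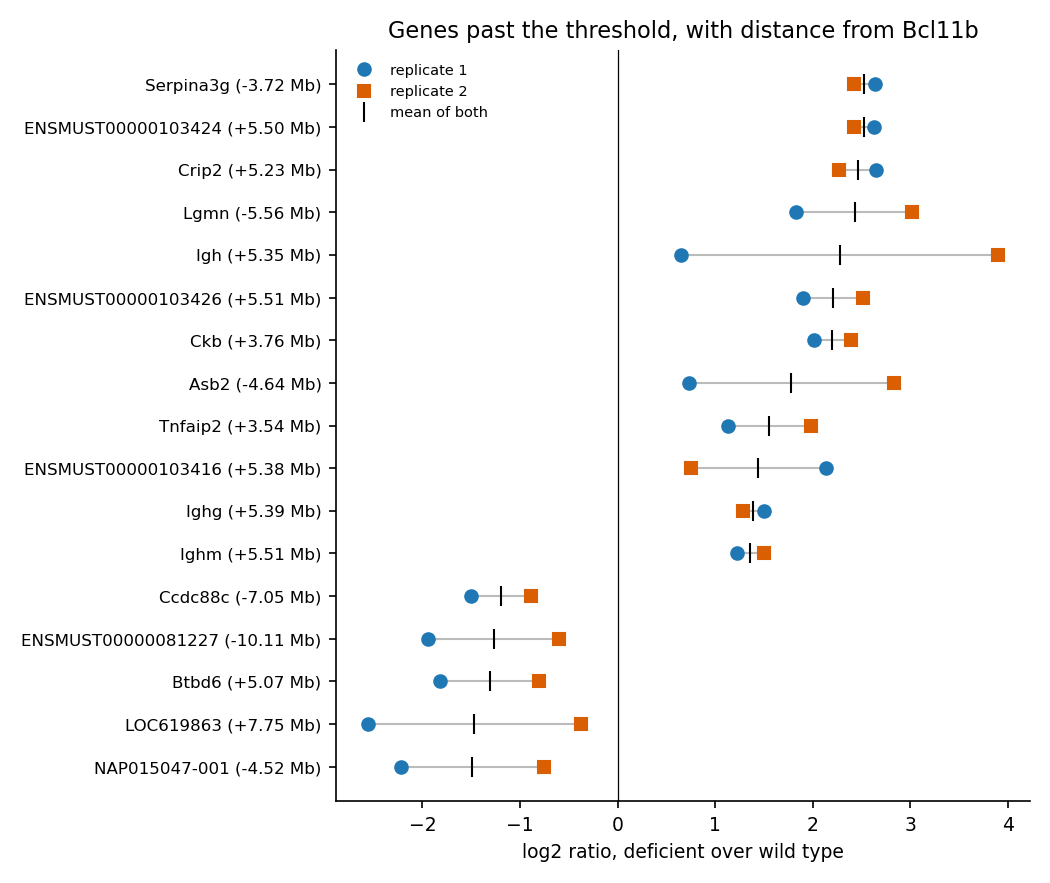
Log2 ratio on replicate 1 (circles) and replicate 2 (squares), with the mean (bars), for the 17 genes of the neighbourhood past the threshold, each with its distance from Bcl11b in Mb. The 12 higher genes reach 2.53 and the 5 lower genes -1.49, where NAP015047-001 has only a bound, and Igh differs most between the arrays.

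Counted by name, the heavy-chain locus held 6 of the 12 higher genes of the neighbourhood. Its segment, from the first to the last probe with a heavy-chain name (113706582 to 116400426, 2.69 Mb), has 86 probes, of which 34 were measured for 26 genes. Of these 26, 6 were higher and 1 lower, 23.1% and 3.85%, against 3.65% and 5.96% of all genes. Their median was 0.57 (0.12 on replicate 1 and 1.09 on replicate 2). The array values differ, with 15 genes above 0 on both arrays, 3 below 0 on both and 8 of opposite sign. Heavy-chain genes share sequence, so a probe may report more than 1 of them. A gene may also be counted here under more than 1 name. Ighm and ENSMUST00000103426, both higher, start at 113866458 and 113868697 on the same strand. The 6 higher names may thus stand for fewer separate genes, and the shares and medians carry the same limit.

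The constant genes lie first, and the rises lie there. Igh, a probe named for the locus as a whole at its end nearest to Bcl11b, had 0.65 and 3.90 (mean 2.28 ± 2.30, SD, n = 2, limma adjusted p = 7.19e-06). Probes beside it for the same transcript gave 0.54 and 3.81, and 0.09 and 3.72. The difference between the arrays was thus of like size in these 3, and limma called each of them on its own. The other 2 measured probes named Igh lie farther out, at 6.77 and 6.94 Mb from Bcl11b. They had 0.33 and 0.61, and -0.45 and 1.40, and neither was called. With the mean of its 5 probes Igh had 1.46 (limma adjusted p = 0.00864). For the brightest probe deficient RNA had 14.58 and 14.84 (log2 intensity) and wild-type RNA 13.93 and 10.94. Ighg had 1.50 and 1.29 (mean 1.39 ± 0.15, limma adjusted p = 0.0156), with wild-type RNA well above background on 1 of 2 arrays. Ighm, the constant gene of IgM, had 1.22 and 1.50 (mean 1.36 ± 0.20, limma adjusted p = 0.0190; 113866458 to 113866517). A second measured probe for Ighm had 0.49 and 1.79 and was not called on its own (limma adjusted p = 0.0844). The first probe was among the brightest in both groups, at 16.20 and 15.82 in deficient and 14.98 and 14.32 in wild-type RNA. With median centring in place of loess its mean was 0.34. The transcripts ENSMUST00000103424, ENSMUST00000103426 and ENSMUST00000103416, chosen after their values were seen, had means of 2.52, 2.21 and 1.44. A second measured probe of ENSMUST00000103416 had a mean of 0.39.

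The variable genes differed between the arrays. For Adam6b, a non-immunoglobulin gene that sits before them, deficient RNA was not well above background and wild-type RNA was at least 1.62-fold higher (limma adjusted p = 0.322). Up to and including Adam6b, a border set after the values were seen, 11 genes had a median of 1.36 (0.96 and 1.29), with 9 above 0 on each array. Beyond it, 15 genes had a median of 0.45. There 6 of 15 were above 0 on replicate 1 (median -0.10) and 14 of 15 on replicate 2 (median 1.05). Igh-VJ558 is an example, with -0.14 and 1.45 (limma adjusted p = 0.365). Of the 6 measured genes with a heavy-chain name 3 rose and limma called 0 lower (0 also at an unadjusted p under 0.05). Over all genes limma called 3.65% higher and 5.96% lower. B-cell markers, at a median of 1.25 on replicate 1 and 2.33 on replicate 2, rose in the same samples, as did 1 of the 2 measured plasma cell markers (median 0.64 and 2.28). Their part in the heavy-chain values was not tested.

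**Figure D4:**
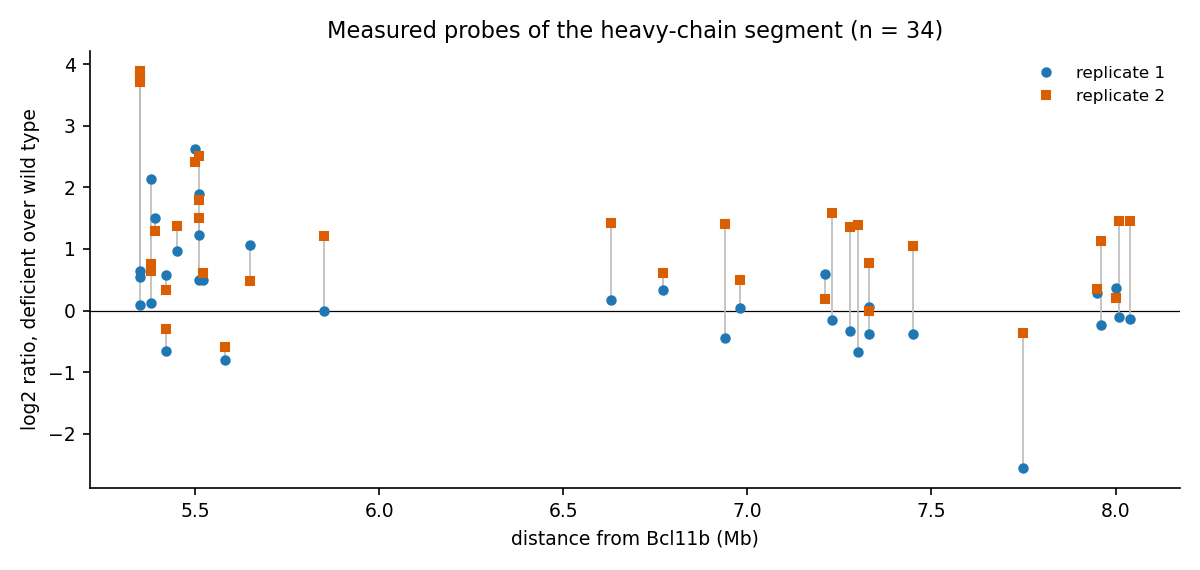
Log2 ratio on replicate 1 (circles) and replicate 2 (squares) of the 34 measured probes of the heavy-chain segment against distance from Bcl11b in Mb; lines join the arrays. Near 5.4 Mb most probes are above 0 on both arrays, and beyond 5.6 Mb replicate 2 lies above replicate 1 for most of them.

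The remaining genes were grouped by what they do. Beside their counts, limma called 3.65% of all 9941 genes higher and 5.96% lower. At an unadjusted p under 0.05, 754 of all genes were higher and 1422 lower. Signalling genes had 15 measured members, of which Asb2 rose and limma called 0 lower (0 also at an unadjusted p under 0.05; median 0.03, from -0.70 to 1.78). Traf3, a regulator of TNF-receptor signals, had -1.18 and 0.18, and for Siva1, a partner of CD27, deficient RNA was not well above background and wild-type RNA was at least 1.61-fold higher (limma adjusted p = 0.321). Akt1, a central kinase of growth signals, had -0.13 and 0.34 and was named outside the rule. Of 16 measured transcription and RNA genes limma called 0 (2 lower and 0 higher at an unadjusted p under 0.05, Cdca4 and Dicer1; median -0.35, with -0.52 and -0.17). Dicer1, Yy1 and Vrk1 are given above. For Cdca4, a cell-cycle gene, deficient RNA was not well above background and wild-type RNA was at least 1.71-fold higher (limma adjusted p = 0.169). Of 6 measured genes on the list of phagocyte, interferon and granule genes 3 rose (Lgmn, Tnfaip2 and Crip2). The median was 1.24 (1.00 and 2.03). Crip2 was put on this list although it is described above only as a LIM protein. Pld4, a nuclease of lysosomes, had -0.23 and 2.08 (limma adjusted p = 0.156), and the interferon-induced Ifi27 and Ifi27l2a had 0.30 and -0.59, and 0.86 and -0.40. This group was thus not raised throughout. Limma called 3.65% of all genes higher, and since this list was chosen with earlier results known, its count supports nothing. Of 19 measured genes on the housekeeping list limma called Ckb, the brain-type creatine kinase, higher. It called 0 lower (3 at an unadjusted p under 0.05), and the median was -0.40 (-0.72 and 0.04). Pacs2, a sorting protein, had -1.74 and -0.49 (limma adjusted p = 0.0698), Bag5, a co-chaperone, -1.48 and -0.52 (limma adjusted p = 0.118), and Adssl1, an adenylosuccinate synthase, 0.76 and 1.38 (limma adjusted p = 0.0859). These lists are described against the median of -0.12 over all genes, and nothing is claimed as particular to them.

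The neighbourhood's median was higher than that of the rest of chromosome 12 by an amount that depended on the genes taken. The 222 measured genes of the rest had a median of -0.23 (-0.41 and 0.00), with 3 higher (1.35%) and 14 lower (6.31%). Over all genes these shares were 3.65% and 5.96%. The difference between the medians was 0.25 (0.25 on replicate 1 and 0.08 on replicate 2). Without the heavy-chain segment it was 0.08 (0.02 and 0.01), and 6 of 95 genes were higher (6.32%) and 4 lower (4.21%). Over the 58 genes within 5 Mb, which hold no heavy-chain gene, it was 0.21 (0.33 and 0.01). The 42 genes on the centromeric side had a median of -0.27 with 3 higher and 3 lower, and the 48 between Bcl11b and the heavy chain one of -0.13 with 3 higher and 1 lower. Beyond the segment, 5 genes had a median of 0.27, and limma called 0 of them (1 at an unadjusted p under 0.05). Among them, ENSMUST00000103552, just past Igh-VJ558, had -0.11 and 1.40, near the -0.14 and 1.45 of Igh-VJ558. The segment's border follows heavy-chain names, so this transcript may belong to the locus. The set without the heavy-chain segment includes it. Against all other chromosomes the difference was 0.13 (0.06 and 0.08). The difference to the rest of chromosome 12 was not tested. Where both groups were well above background, 10 of 67 neighbourhood genes were higher and 2 lower (median 0.19), against 317 and 76 of 5733 genes in all (median 0.06).

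**Figure D5:**
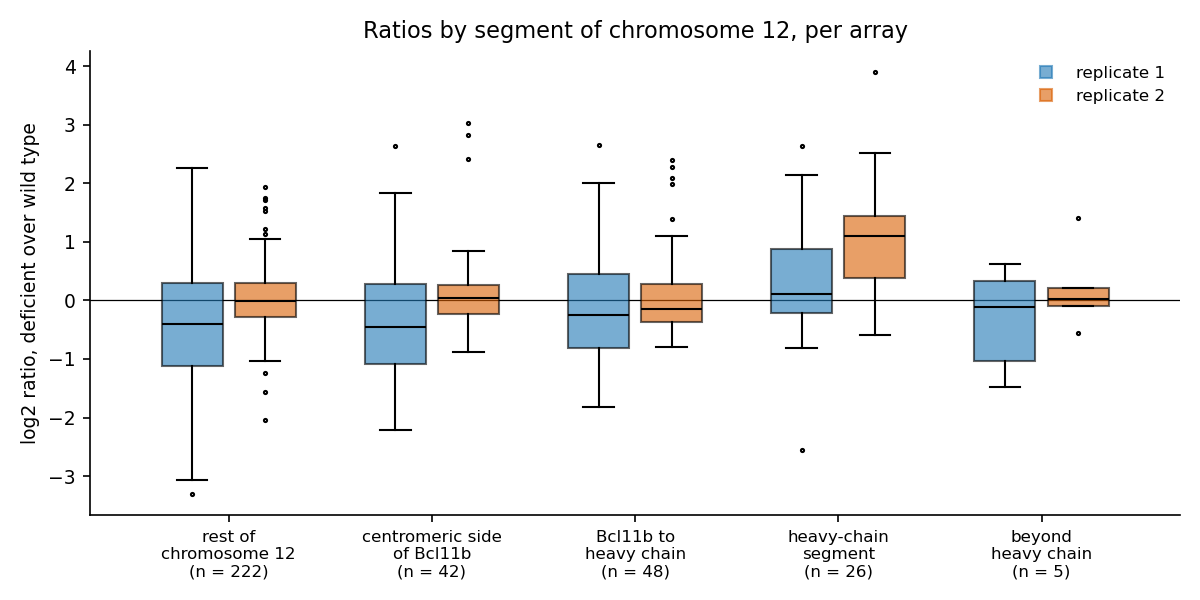
Log2 ratios of genes in the rest of chromosome 12 and in 4 segments of the neighbourhood, on replicate 1 (blue) and replicate 2 (orange); lines mark medians, boxes quartiles, whiskers reach to 1.5 times the quartile range, and dots lie beyond. The heavy-chain segment stands highest on replicate 2 (median 1.09), and the other segments overlap the rest of the chromosome.

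The measurements of single genes rest on few probes. Of 25 genes with at least 2 measured probes, 4 had probes of opposite sign (Dicer1, Ifi27l2a, Papola and Ppp1r13b). The arrays correlated at r = 0.609 across the 121 genes and 0.594 across all genes, a description of arrays that share dye orientation. Of the 121 genes, 85 carry a name that RefSeq also places on chromosome 12, 35 have no RefSeq name, and Mpc1 (-1.36 and 0.01) is placed on chromosome 17 by RefSeq, so its probe may not belong to the region. At the outer limits of the region, the first gene inside on the centromeric side was ENSMUST00000081227, followed by Gpr65 (-0.87 and 0.46), and the last outside were Gtf2a1 (-1.97 and 0.04) and Sel1l (0.12 and 0.23). At the telomeric end, 2310058N22Rik (-1.48 and -0.55) and Sp4 (-1.03 and -0.09) were the last measured genes.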

How the data were processed

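RNA of purified CD8+ T cells was measured on 2 two-colour Agilent arrays on 1 slide. Per the file headers, the deposited scanner files hold spot intensity values from Agilent Feature Extraction 9.5.3.1, which also wrote the log10 of red over green after its own dye normalization. The authors' value table holds that log10 ratio (largest difference 0.00500 and 0.00493, median 0), in the direction deficient over wild type.

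From mean signals and local background, log2 ratios were computed with limma 3.58.1 in R 4.3.3: normexp (offset 50), loess with control spots at weight 0, outlier spots left out, duplicates averaged, no scaling between arrays. Coordinates are those of the files (NCBI36, mm8), whose genome was not used here. Names come from RefSeq (GRCm38.p6): 207 of 476 probes by accession, 121 by symbol, and 148 kept the array's name. Probes needed 1 colour well above background on both arrays, in any unflagged spot, a rule chosen after seeing the data. That left 12632 probes and 9941 genes, each represented by its brightest probe. The mean ratio was tested against 0 with lmFit and eBayes, two-sided, with Benjamini-Hochberg adjustment over all genes, threshold 0.05, and 1 residual degree of freedom. In this fit the estimated variance was the same for every gene. A p-value thus follows the size of the mean and not the gene's own spread between the 2 arrays. The number of arrays limits the precision. A bound on a fold sets the bright group's mean against a floor for the dim group. Per array, this floor is whichever is brighter of the dim probe and the faintest probe well above background. Channel values come from loess and Aquantile, and the bound is open to dye bias. Where the dim probe is the brighter on both arrays, the bound equals the fold from the mean ratio. It carries no standard error.

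Named are the 10 nearest measured genes on each side of Bcl11b, up to 12 called genes per direction with plain names and the same sign on both arrays, and up to 4 genes per functional list with the smallest adjusted p. The region, lists and rules were chosen with earlier results of these data known. Alternatives changed background, scaling, values, filter, probe choice, channels, extent, reference and window, or left out an array.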

Additional observations from a re-analysis of the deposited data

How the results depend on the processing

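The counts of called genes (12 higher, 5 lower) depended most on the processing. Limma called 0 and 0 with the scanner program's ratios and with the deposited value table (15 higher and 19 lower at an unadjusted p under 0.05 in each), 0 and 0 with those ratios and every spot of a probe above background, chosen after seeing the data (smallest adjusted p = 0.0574), 0 and 0 without the filter on dim probes (28 and 29), and 0 and 0 with separate channels (11 and 13). In each of these settings limma also called 0 genes on the whole array (1983 to 2199 at an unadjusted p under 0.05 with the filter, 5116 without it). It called 3 higher with median centring (69 higher of all genes), 4 higher and 1 lower within 5 Mb of Bcl11b, and 6 higher without the heavy-chain segment. The lower count was 2 without background subtraction (184 lower of all genes), 3 with both channels above background and 8 with every probe on its own. In the other settings both counts stayed within 1.5 times. Median centring put the median of all genes at -0.41 (-0.75 and -0.07), where loess gave -0.12. The difference between the neighbourhood and the rest of chromosome 12 was 0.02 without the filter and 0.08 without the heavy-chain segment, and single arrays gave 0.08 and 0.25. The median within 1 Mb of Bcl11b was -0.80 with median centring and -0.03 without the filter, and -0.21 and -0.64 on single arrays. The correlation with distance was -0.112 and 0.197 on single arrays. Of the 39 named genes, 3 changed sign under 1 setting that keeps both arrays: Evl at -0.67 and Cyp46a1 at -0.05 with median centring, and Papola at 0.03 with the mean of its probes. On a single array 9 had the opposite sign of their mean, from -0.23 for Pld4 to 0.28 for Papola. The causes were not tested. Adssl1 passed in 2 of 12 alternatives and Pld4 in 1 of 12. Called genes passed in 4 of 11 alternatives (Btbd6) to 7 of 12 (Lgmn and Crip2). Requiring every spot of a probe to be above background, an alternative chosen after seeing the data, left 12 and 5. Each array holds both genotypes and its ratio is already the pair, so the main test of the ratios against 0 was a paired one. Dim signal limits the region: 322 of its 476 probes were not measured.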
